A study of Mus musculus with 8 samples.

Results

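The genes described here are 10 components of the insulin and insulin-like growth factor (IGF) pathway: the ligand gene Igf1, the receptor genes Igf1r and Insr, the binding protein genes Igfbp3, Igfbp4 and Igfbp5, the receptor substrate genes Irs1 and Irs2, the PI3K subunit gene Pik3r1 and the kinase gene Akt2. They were chosen by the H3K56ac peaks in and around them, so the amount of H3K56ac at these loci is given as a description and was not tested. All peaks overlapping one of the genes or the 50 kb on either side by at least 1 bp were taken, which gave 319 of the 105600 peaks in the merged list, or 0.302%. The 10 windows span 1774 kb, of which 632 kb or 35.6% lay under a peak.

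To determine where H3K56ac lies in muscle stem cells (MuSCs) and how it changes without SIRT6, an enzyme that removes this mark, the study performed chromatin immunoprecipitation with sequencing (ChIP-seq) on sorted, freshly isolated MuSCs of C57BL/6 mice. The paper calls the control MuSCs of these data wild type, and elsewhere gives the controls of Sirt6mKO as floxed Sirt6 mice without Cre. Sirt6mKO animals lacked Sirt6 in the muscle lineage through a constitutive Cre driven by the Pax7 promoter. Myofibers formed from those cells therefore carry the deletion too. The 8 libraries fall into 4 groups of 2, H3K56ac and input for Control and the same pair for Sirt6mKO, with input being chromatin sequenced without an antibody. Ages are not given for them in the labels. The paper names male mice, with an age range, for its figure with these data as a whole. The analysed list is a single union of peaks with no value per library, so an interval may stem from either genotype, the libraries behind it are unknown, and Sirt6mKO could not be compared with Control.

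Insulin and IGF1 bind related receptor tyrosine kinases on the cell surface, IGF binding proteins hold IGFs outside the cell, and the activated receptors phosphorylate the docking proteins IRS1 and IRS2. The docking proteins recruit PI3K, whose lipid product activates AKT kinases, which drive glucose uptake, protein synthesis and growth and keep FOXO transcription factors out of the nucleus. In muscle, IGF signalling promotes growth of the fibers as well as proliferation and differentiation of their stem cells, and H3K56ac, acetylation of a lysine in the core of histone H3, is known from promoters and enhancers of active genes.

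The promoters of the 10 genes, which were chosen by their peaks, differ in sequence. All 10 had a peak within 1 kb of an annotated transcription start site (TSS), as did 65.4% of protein-coding genes. The stretches below show the range in sequence, from promoters dense in CpG dinucleotides to one that holds none. Each is the 250 bases before a RefSeq start on GRCm38.p6, written 5′ to 3′ on the strand of the gene, with CpG dinucleotides in capitals. They lie at chr1:82291440-82291689 (minus strand) for Irs1, chr8:11008930-11009179 (minus) for Irs2 and chr7:67952007-67952256 (plus) for Igf1r. Those of Pik3r1 are at chr13:101768218-101768467 and, for the start of its shorter isoforms, at chr13:101692631-101692880 (both minus), and that of an internal Akt2 start is at chr7:27596580-27596829 (plus).
Irs1: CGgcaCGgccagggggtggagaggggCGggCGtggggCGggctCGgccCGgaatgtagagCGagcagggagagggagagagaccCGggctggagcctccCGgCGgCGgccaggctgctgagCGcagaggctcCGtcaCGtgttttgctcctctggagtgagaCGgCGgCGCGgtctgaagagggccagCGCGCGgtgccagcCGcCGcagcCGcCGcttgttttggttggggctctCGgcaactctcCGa
Irs2: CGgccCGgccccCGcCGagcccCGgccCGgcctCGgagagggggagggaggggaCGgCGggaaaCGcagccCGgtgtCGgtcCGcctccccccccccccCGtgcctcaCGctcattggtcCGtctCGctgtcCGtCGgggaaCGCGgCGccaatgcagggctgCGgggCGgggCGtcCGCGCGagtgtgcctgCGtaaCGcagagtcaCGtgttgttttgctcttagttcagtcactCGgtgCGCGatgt
Igf1r: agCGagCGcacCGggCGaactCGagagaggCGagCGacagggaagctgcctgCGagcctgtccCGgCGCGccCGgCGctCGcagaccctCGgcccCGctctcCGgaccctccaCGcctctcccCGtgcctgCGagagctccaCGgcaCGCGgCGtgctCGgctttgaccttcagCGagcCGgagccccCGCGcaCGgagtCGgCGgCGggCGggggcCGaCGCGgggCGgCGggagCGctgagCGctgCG
Pik3r1: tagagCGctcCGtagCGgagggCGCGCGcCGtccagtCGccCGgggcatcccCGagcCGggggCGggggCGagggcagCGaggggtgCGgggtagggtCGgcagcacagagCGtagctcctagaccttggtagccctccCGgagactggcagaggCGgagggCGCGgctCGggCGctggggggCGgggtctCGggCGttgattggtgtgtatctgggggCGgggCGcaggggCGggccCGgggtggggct
Pik3r1, shorter isoforms: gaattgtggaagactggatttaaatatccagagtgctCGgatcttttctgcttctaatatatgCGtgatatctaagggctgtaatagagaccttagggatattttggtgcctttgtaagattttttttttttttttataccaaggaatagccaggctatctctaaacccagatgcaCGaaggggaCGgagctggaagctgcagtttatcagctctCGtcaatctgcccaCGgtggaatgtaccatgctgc
Akt2, internal start: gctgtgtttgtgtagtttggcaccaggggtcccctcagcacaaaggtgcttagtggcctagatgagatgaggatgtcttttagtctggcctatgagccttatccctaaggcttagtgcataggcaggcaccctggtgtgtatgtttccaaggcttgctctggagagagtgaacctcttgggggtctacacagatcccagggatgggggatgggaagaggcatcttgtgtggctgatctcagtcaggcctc
The Igf1r stretch holds 42 CpGs, that of Irs2 34, that of the upstream Pik3r1 start 30 and that of Irs1 28. The start of the shorter Pik3r1 isoforms holds 6 and the internal Akt2 start 0, whereas the stretch before the main Akt2 start, not shown, holds 10. These stretches lay entirely under a peak, except that 88.4% of the upstream Pik3r1 stretch did. In the RefSeq table, 13 promoters of 9 of the genes were listed, and Insr was not among them.

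The covered share of each window, meaning the percentage of the gene plus 50 kb that lay under peaks, ranged from 6.64% at Igfbp3 to 53.0% at Irs1. The median was 32.5%, beside 9.46% over 21938 protein-coding genes with the same window (quartiles 2.02% and 19.2%). Irs1, Pik3r1, Irs2 and Igf1r formed the upper end with 53.0%, 52.9%, 52.3% and 47.1%. Igfbp5, Akt2, Igf1 and Igfbp4 followed with 35.0%, 30.0%, 29.2% and 28.8%. Insr with 10.4% and Igfbp3 with 6.64% stood near the median of all coding genes. The list gives 1 value per gene with no replicate error, so the order of near neighbours such as Irs1, Pik3r1 and Irs2 cannot be resolved. Within the gene bodies the median covered share was 48.7%, beside 7.82% over coding genes, and 5 of the 10 bodies (Irs1, Irs2, Igfbp4, Pik3r1 and Igf1r) were more than 50% under peaks, a state found in 9.90% of coding genes.

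**Figure D1:**
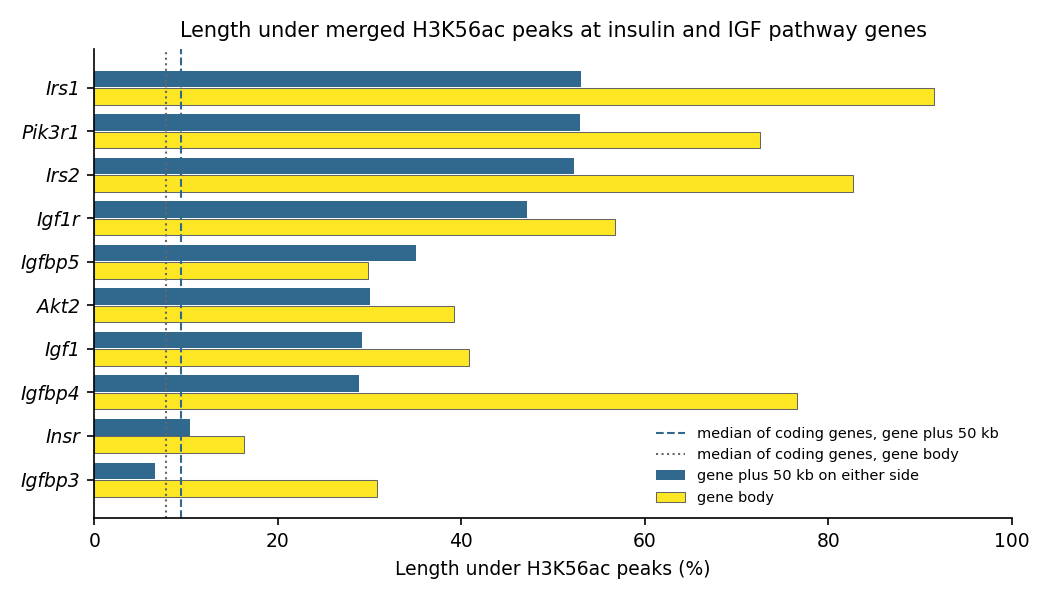
Horizontal bars give, for each of the 10 genes, the percentage of length under merged H3K56ac peaks, in blue for the gene plus 50 kb on either side and in yellow for the gene body. Vertical lines mark the medians over 21938 protein-coding genes (9.46% dashed, 7.82% dotted). Irs1 reaches 53.0% of the window and 91.5% of the body, and Igfbp3 alone falls short of the dashed line.

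A peak lay over the principal TSS, that of the main annotated transcript, in 10 of the 10 genes, as in 57.9% of coding genes. A peak of at least 5 kb lay in the windows of 9 of the 10, Igfbp3 being the exception, as in 37.4% of coding genes. Because peaks were used to choose the genes, nothing is read from the distance between these counts and the background. Of the 319 peaks, 24 touched an exon of the principal transcript, 154 lay in its introns, 66 upstream and 75 downstream. Their median width was 1046 bp (quartiles 658 and 2402 bp, range 312 to 18948 bp), beside 974 bp for all peaks. The 27 peaks of at least 5 kb were 8.46% of the peaks of these genes and held 34.0% of their covered length. In the whole list such peaks were 6.00% and held 27.2%.

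**Figure D2:**
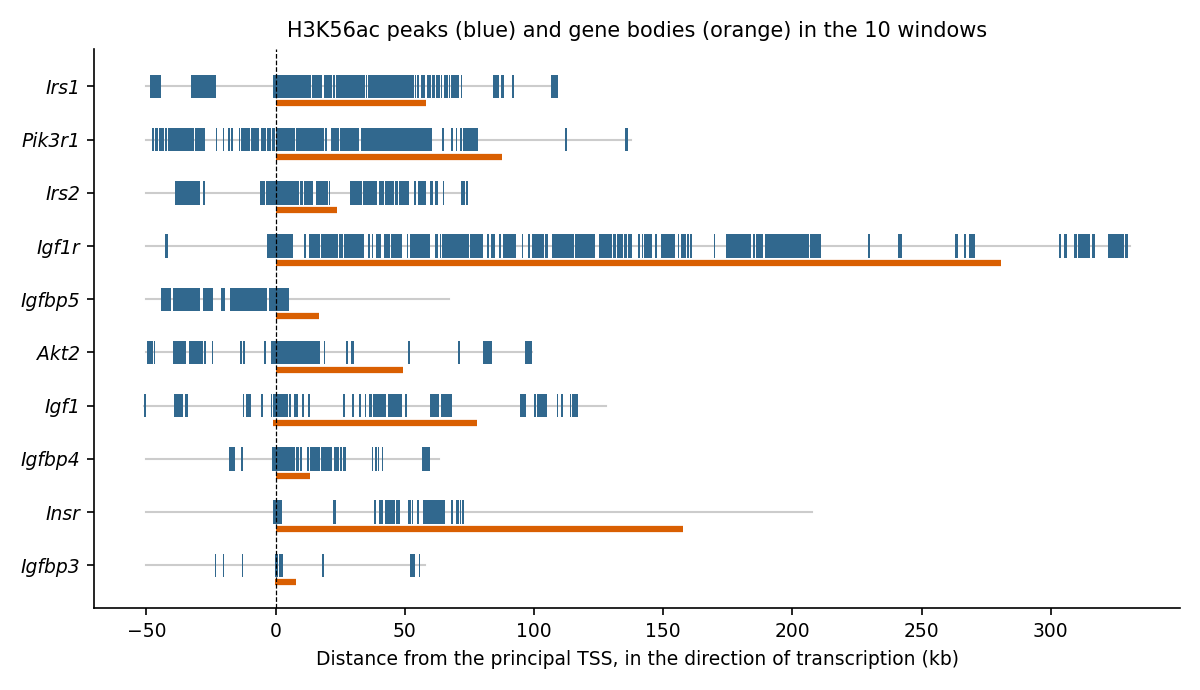
Blue blocks are the H3K56ac peaks of the 10 windows, placed by distance in kb from the principal TSS in the direction of transcription, orange bars are gene bodies and grey lines the windows. Peaks run on through Irs1 and past its end, fill introns 1 and 2 of Igf1r, stop within the gene at Insr, and lie upstream of Igfbp5.

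Igf1 encodes the secreted growth factor of the pathway, which muscle produces for local use as well as the liver for the circulation. Its 78.8-kb gene (ENSMUSG00000020053.18, chr10:87858265-87937042, plus strand) was 40.8% covered and its window held 33 peaks. A single 5833-bp peak (chr10:87858196-87864028) lay over all 8 annotated TSS positions of Igf1, so that the alternative first exons shared 1 interval. Further in, 4 peaks in intron 2 formed a run of 12.7 kb between 36192 and 48917 bp from the principal TSS, with a peak of exactly 5000 bp among them. Beyond the gene, 22.9% of the downstream 50 kb was covered, compared to 17.4% upstream. The antisense gene Igf1os, which overlaps the Igf1 start, had a promoter peak as well, and the intervals carry no strand that could assign H3K56ac to one of the pair.

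Igf1r encodes the IGF1 receptor and held the most peaks, 89, of which 80 lay in the gene and 9 in the flanks. Its window was also the longest, 381 kb. Per 100 kb of window it held 23.4 peaks, compared to 25.6 at Pik3r1 and 25.3 at Irs1. The gene (ENSMUSG00000005533.10, chr7:67952827-68233668, plus strand) is 281 kb long and was 56.7% covered. Its TSS lay under a 6365-bp peak (chr7:67949618-67955982). Intron 1 (50.9 kb) was 73.2% covered by 20 peaks, and intron 2 (161 kb) 72.0% by 54 peaks, including one of 15151 bp (chr7:68144110-68159260). Behind intron 2, 5.86 of 68.7 kb (8.54%) lay under 6 peaks, and 3 of the 21 exons were touched. Upstream the locus was sparse, with 8.99% of 50 kb covered, compared to 31.4% downstream, where Pgpep1l, Fam169b and Gm16157 had promoter peaks of their own. Among the 377 coding genes within 20% of its length, the median window share was 5.55%, and Igf1r stood at percentile 98.7.

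Insr, the gene of the insulin receptor (ENSMUSG00000005534.10, chr8:3122061-3279617, minus strand), is related to Igf1r and has 21 exons too, yet it held 17 peaks and 16.3% of its 158 kb was covered. Its TSS peak was 3506 bp wide (chr8:3277274-3280779). Intron 1 (20.1 kb) was covered to 8.73%, whereas intron 2 (46.7 kb) held 13 of the peaks and was covered to 43.5%, with the widest being 6353 bp (chr8:3216143-3222495). All 17 peaks lay between the promoter and intron 3. The part behind the gene midpoint held 0 peaks, 84.6 kb separated the last peak from the gene end, and the downstream 50 kb was 0% covered. At both receptors the TSS and the long intron 2 held peaks and the introns behind intron 3 few or none, whereas intron 1 was 73.2% covered at Igf1r and 8.73% at Insr.

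The binding protein genes are short and differed from each other in where the peaks lay. Igfbp5 encodes a binding protein known for a role in muscle cell differentiation (ENSMUSG00000026185.8, chr1:72857932-72874884, minus strand). It held 17 peaks, and 71.8% of the 50 kb upstream was covered compared to 0% of the 50 kb downstream. A run of 8 peaks spanned 23.1 kb, from position -17786 to position 5319 relative to its TSS in bp, and the widest upstream peak, of 7950 bp, lay at chr1:72906526-72914475. The downstream neighbor Igfbp2 had no promoter peak and 0% of its body was covered.

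Igfbp4, whose product inhibits IGF action until it is cleaved (ENSMUSG00000017493.12, chr11:99041244-99054392, plus strand), showed another arrangement. Its 13.1-kb body was 76.6% covered, intron 1 98.5%, and all 4 exons were touched. Downstream coverage was 36.3% of 50 kb and upstream 8.74%, where the neighbor Top2a had a promoter peak. A run of 6 peaks spanning 15.0 kb began before the gene end. It ran into the body of Tns4, a gene with no peak near its own TSS.

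Igfbp3 encodes the main IGF carrier of blood (ENSMUSG00000020427.11, chr11:7206086-7213923, minus strand) and was the only one of the 10 with a window below the coding median. It held 8 peaks, the widest of 1915 bp, which lay in the neighbor Adcy1. Within the gene 2 peaks, of 1293 bp over the TSS and 1375 bp in intron 1, made up a run of 3.00 kb. Behind the gene midpoint 0% was covered. Igfbp1, the adjacent binding protein gene, had no promoter peak, as was the case for Igfbp2 beside Igfbp5.

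Irs1 encodes the first-described docking protein of the insulin receptor (ENSMUSG00000055980.2, chr1:82233101-82291416, minus strand). It has 2 exons and a 49.2-kb intron, and 93.0% of the intron and 83.5% of the exons were covered. When intervals less than 1 kb apart were joined, 32 peaks formed a series of 73.5 kb (chr1:82219072-82292559). The series began 1143 bp upstream of the TSS, ran through the entire gene and ended 72344 bp downstream of the TSS, beyond the gene end. Peaks made up 88.6% of it, and the gaps were 17 to 673 bp long (median 205 bp). The widest peak, of 10565 bp, lay over the TSS (chr1:82281995-82292559). Further wide peaks of 8265, 7779 and 9472 bp began 23376, 36149 and 44090 bp downstream of the TSS, whereas behind 53913 bp no peak exceeded 1897 bp.

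Of the 58591 joined regions in the list, 28 (0.0478%) were at least as long as the one at Irs1. The longest of them was 167 kb at Nfib, followed by 165 kb at Zbtb20 and one of 132 kb that overlaps no protein-coding gene. The length at Irs1 depends on the joining distance, since the second gap from the promoter side is 534 bp: at 500 bp it split into 8 runs, of which the one over the TSS was 14.8 kb with 2 peaks and the longest was 33.2 kb with 11 peaks (chr1:82235785-82268991). At 2 kb it was 73.5 kb. Near the gene end, the series passes over the oppositely oriented gene Gm9747, which has a promoter peak. Upstream of Irs1, a peak of 9351 bp (chr1:82314653-82324003) lay at the start of Rhbdd1 and accounted for much of the 29.2% coverage there.

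**Figure D3:**
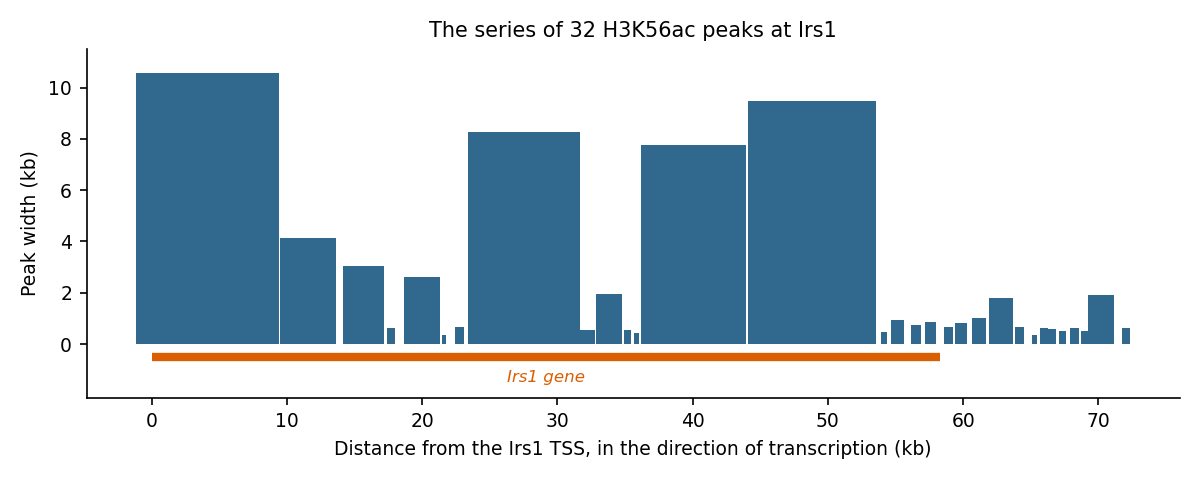
Each block is one of the 32 peaks joined into the 73.5-kb series at Irs1, drawn to its extent along the horizontal axis (kb from the TSS in the direction of transcription) and with its width in kb as height. The orange bar marks the gene. The widest block (10565 bp) starts before the TSS, and the blocks past the gene end are at most 1897 bp wide.

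Irs2 encodes the docking protein that shares the role of IRS1 (ENSMUSG00000038894.7, chr8:10984681-11008458, minus strand). Its architecture resembles that of Irs1, with 2 exons and 1 long intron (17.5 kb, 89.8% covered), and 82.7% of the body was covered. An 11365-bp peak (chr8:10999197-11010561) spanned its TSS. With intervals less than 1 kb apart joined, this peak was part of a run from position -6090 to position 14471 relative to the TSS in bp. Unlike at Irs1, the longest run of peaks did not touch the gene. This run of 11 peaks spanned 22.8 kb (chr8:10956960-10979777), 28681 to 51498 bp downstream of the TSS, over the long non-coding RNA gene Gm44956. Both Gm44956 and Gm44955, another such gene farther downstream, had promoter peaks. So did 9530052E02Rik, which starts on the opposite strand inside the 11365-bp peak over the Irs2 TSS. The intervals carry no strand that could assign that peak to one of the pair. Downstream coverage came to 59.0% of 50 kb and upstream coverage to 31.0%, the latter mostly from a 9578-bp peak at chr8:11037814-11047391 in the transcript 9530052E02Rik.

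Pik3r1 encodes the regulatory subunit of PI3K, and its shorter isoforms start inside the gene (ENSMUSG00000041417.15, chr13:101680563-101768217, minus strand). Its window held 48 peaks and 72.6% of the 87.7-kb body was covered. As at Igfbp5, the upstream side was the denser one: 67.3% of the upstream 50 kb was covered, compared to 3.96% of the downstream 50 kb. The TSS peak (3630 bp, chr13:101764598-101768227) ended 10 bp upstream of the TSS, and the next peak upstream began 40 bp upstream of the TSS. Intron 2 (47.6 kb), which holds the transcript Gm36638 with a promoter peak, was 91.1% covered, and a run of 14 peaks from there into the following exons spanned 38.9 kb (chr13:101707720-101746600). The start of the shorter isoforms, 75587 bp downstream and with 6 CpGs in the stretch shown above, lay under a separate 3860-bp peak (chr13:101691727-101695586).

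Akt2 encodes the AKT kinase most closely tied to insulin-stimulated glucose uptake (ENSMUSG00000004056.15, chr7:27591552-27640826, plus strand). It carried the widest of the 319 peaks, 18948 bp (chr7:27589675-27608622), which began 1877 bp upstream of the TSS and covered all of intron 1. Of its 14 TSS positions, 11 lay under this peak and the others under none. Behind it the gene was nearly free of peaks: 71.5% was covered before the midpoint and 6.79% behind it, and 7.94% of the later introns were covered. The CpG-free start shown above lies inside this peak. Flanking peaks coincided with other genes, since Pld3, 2310022A10Rik, Map3k10 and Zfp607b had promoter peaks in the same window and Ttc9b had none.

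By distance from the TSS, the mean coverage of the 10 genes was 35.0% in the 10 kb upstream and 71.7% in the 10 kb downstream, compared to 18.0% and 22.1% over coding genes. It was 52.5% from 40 to 50 kb downstream, compared to 11.2%. The genes were unlike each other at that distance: Irs1, Pik3r1 and Irs2 had 98.4%, 97.5% and 93.7%, whereas Akt2, Igfbp3 and Igfbp5 had 0%. From 30 to 40 kb upstream, the mean was 43.3%, with Pik3r1, Igfbp5, Irs2 and Akt2 between 83.0% and 95.6% and Insr, Igf1r, Igfbp3 and Igfbp4 at 0%. At the edges of the windows, 2 peaks crossed the border. Coverage was 19.5% in the last 10 kb inside and 18.0% in the first 10 kb outside.

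**Figure D4:**
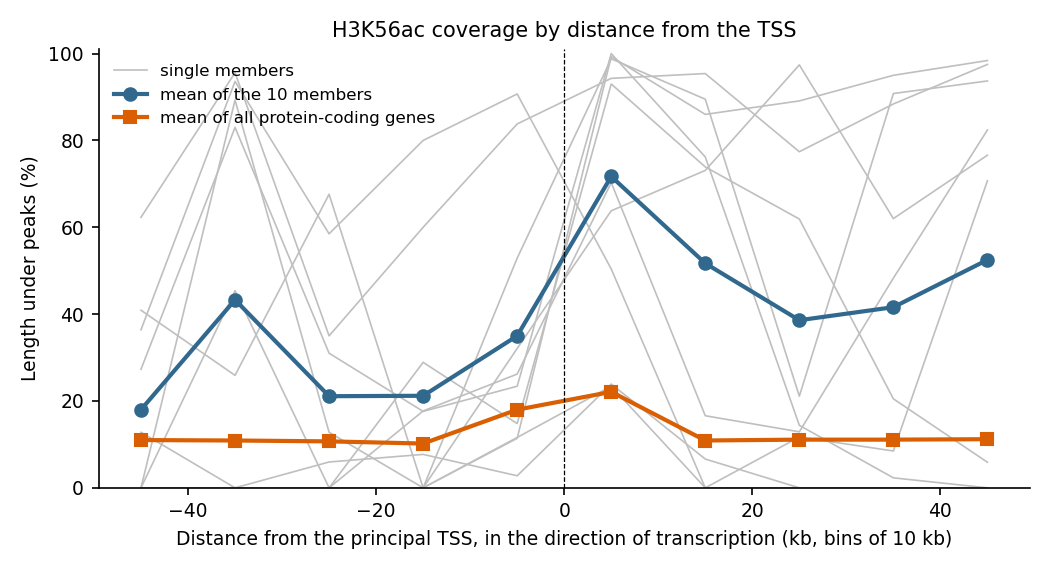
Lines give the percentage of length under peaks in bins of 10 kb, plotted against distance in kb from the principal TSS, for each of the 10 genes (grey), their mean (blue) and the mean of 21938 protein-coding genes (orange). The blue line peaks at 71.7% just downstream of the TSS, and single genes spread from 0% to nearly full coverage in the outer bins.

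The sequence under the peaks did not enter the choice of the genes. GC content was 45.9% in the peaks of the 10 genes, 44.2% between them and 46.6% in all peaks of the list. Repeat-masked sequence made up 17.9% of the peaks, 28.9% of the intervening parts and 19.4% of all peaks. In the Irs1 series it was 19.2% of the peaks and 34.4% of the gaps. Reads were required to align to a single place, and its part in the position of the gaps was not tested.

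FOXO factors are switched off by this pathway, and their core motif TGTTTAC (searched on both strands) occurred in 24.8% of the peaks of the 10 genes, beside 19.8% of all peaks. Per kb of peak the values were 0.183 and 0.150. The E-box CAGCTG, the kind bound by myogenic factors, occurred in 48.9% and 50.7%, and the AP-1 motif TGANTCA, on both strands, in 38.6% and 34.7%. Per kb of peak, the E-box values were 0.565 and 0.609, and those of AP-1 were 0.317 and 0.318. Matches of different motifs can share bases, and a match says only that the letters are there. By gene, the share of peaks with a FOXO core ranged from 14.3% at Igfbp4 to 34.5% at Irs2. Igf1r, with 89 of the 319 peaks, held 43 of the 116 FOXO matches in these peaks, or 0.240 per kb. Pik3r1 (0.0705 per kb) and Igfbp5 (0.0977) lay below the 0.150 of all peaks, and the other genes above it. Within the TSS peaks of Igf1r and Irs2, the FOXO core lay at 2 places each upstream of the start, shown with 10 bases on either side, the core in capitals and the position of the core relative to the principal TSS in bp. The sites of Igf1r are at chr7:67951934-67951960 and chr7:67949948-67949974 (plus strand), and those of Irs2 at chr8:11009429-11009455 and chr8:11010045-11010071 (minus strand), all read from GRCm38.
Igf1r, position -883: ctgaggttctTGTTTACcagcattaac
Igf1r, position -2869: caagtttccgGTAAACAaaacagccct
Irs2, position -987: aacgatgctcGTAAACAagccgggccg
Irs2, position -1603: gggtttgtttTGTTTACgcatccagag
In the promoters of the RefSeq table, from 250 bases before to 50 after each start, the FOXO core was in none of the 13 listed for these genes, beside 2.96% of 20145 coding promoters. The E-box was in those of Igf1 and of the most downstream Akt2 start, beside 15.7%, and the AP-1 motif in that of Igf1, beside 7.00%. Insr is not among those promoters. In its TSS peak, a FOXO core (chr8:3279553-3279559) ended 64 bp downstream of the principal TSS.

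The rest of the pathway was described with 45 further genes. A peak lay within 1 kb of a TSS in 40 of them, beside 65.4% of coding genes, and over the principal TSS in 37, beside 57.9%. The genes without a peak within 1 kb were Ins1, one of the insulin genes, Igf2, the fetal growth factor, Igfbp1, Igfbp2 and Irs4. Ins2, the other insulin gene, had one within 1 kb of a TSS but none over its principal TSS. The median covered share of the 45 genes was 13.6% (range 0% to 52.3%), and 30 of them were above the coding median. A body more than 50% covered was found in 5 of them, beside 9.90% of coding genes. The highest shares were those of Foxo1 (52.3%) and Foxo3 (49.3%), the FOXO factors restrained by AKT, and Grb10 (37.4%), an adaptor that dampens receptor signalling. Igf2r (35.4%), which clears IGF2, and Slc2a4 (34.1%), the insulin-responsive glucose transporter, came next. These shares include the flanks. The gene bodies of Foxo1, Foxo3, Grb10, Igf2r and Slc2a4 were covered to 86.2%, 85.2%, 46.2%, 56.6% and 12.7%. Among the relatives of the 10 genes, Akt1 had 20.9% compared to 30.0% at Akt2, and Pik3r2 had 30.7% and Pik3r3 6.99% compared to 52.9% at Pik3r1. Insrr, the receptor gene related to Insr, had 10.4%. The windows of the 45 genes held 658 peaks, of which 21 also belong to windows of the 10 genes.

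**Figure D5:**
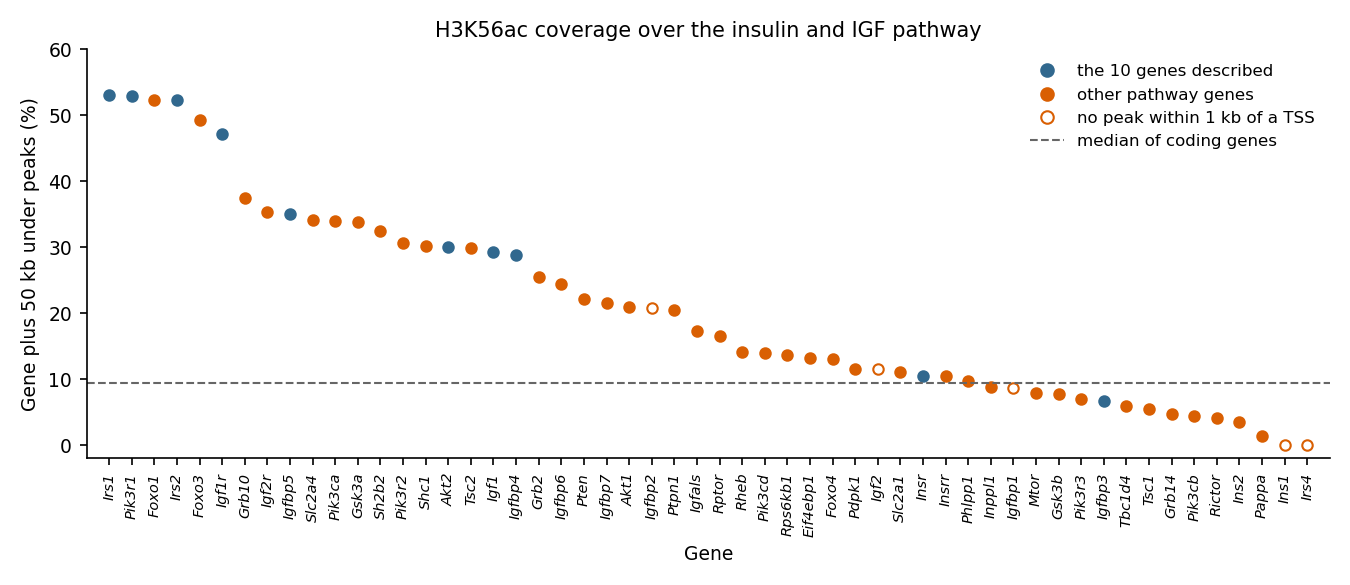
Each point gives the percentage of a gene plus 50 kb under H3K56ac peaks, in blue for the 10 genes and in orange for other pathway genes, in falling order, with open circles for genes without a peak near a TSS. The dashed line is the coding median of 9.46%. Foxo1 and Foxo3 lie among Irs1, Pik3r1, Irs2 and Igf1r at the upper end, and Ins1 and Irs4 at 0%.

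The label of the cells was checked with markers. All 10 MuSC markers, Pax7, Myf5, Calcr, Cdh15, Vcam1, Itga7, Chrdl2, Heyl, Spry1 and Cd34, had a promoter peak, beside 65.4% of coding genes, and their median window share was 37.0%, beside 9.46%, with the highest, 71.2%, at Pax7. Some of them, such as Itga7 and Cd34, also serve to sort these cells. Of 10 markers of blood, endothelial and interstitial cells, Pecam1, Tek and Pdgfra had one, and the median share was 12.0%, also above the coding median, with Cd68 at 33.7% and Pecam1 at 24.1%. Of the genes for the antigens used to remove such cells, Ptprc (CD45) and Ly6a (Sca1) had none, whereas Pecam1 (CD31) had one within 1 kb of a TSS and none over its principal TSS. What part such other cells have in the peaks at the 10 genes was not tested.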

How the data were processed

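H3K56ac and input ChIP-seq libraries were made from MuSCs of Control and Sirt6mKO mice. The authors trimmed reads with Trim Galore, aligned them to mm10 with bowtie keeping single alignments, removed duplicates with Picard, called peaks with MACS2, removed blacklisted regions and merged overlapping peaks with GenomicRanges. Which libraries entered the merge is not stated, and merging fuses and widens intervals. The deposited list holds the start and end of each interval and a score, which was 0 in every row. Read depth at each interval is therefore unknown, no confidence interval or error can be given and no genotype comparison or p-value was computed.

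Intervals were set against GENCODE vM21 on GRCm38, the same build as mm10, counting from 1. The principal transcript was that marked by APPRIS, then the basic set, then the longest. Promoter sequences came from RefSeq, GRCm38.p6. Python 3.11.15, numpy 2.4.6, pysam 0.24.0 and matplotlib 3.10.9 were used, and the interval functions were tested on simulated data. All 10 genes were named. Of other pathway genes, those without a promoter peak and the 5 with the highest share were named. Ins2 and the relatives Akt1, Pik3r2, Pik3r3 and Insrr were named after their values were seen. For 1 of the other pathway genes the values are not reported here, and it is not drawn. Neighbors were named where their promoter held a peak or a run of peaks entered them. Ttc9b was added after its values were seen. Igfbp1 and Igfbp2 belong to the other pathway genes. The genes and lists were chosen with earlier results of these data known. Alternatives were other windows, joined or longer intervals, midpoints, joining distances and TSS definitions.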

Additional observations from a re-analysis of the deposited data

How the results depend on the processing

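Over 4 results, 15 alternatives were tried. Counts within 1.5 times the reported one were taken as similar, and without replicates any change of a share or length was taken as a move, so that 8 values moved and 7 did not. The number of peaks, 319, was 238 with 20 kb on either side, 278 with intervals of at least 500 bp and 318 by midpoint. It was 178 in the gene bodies alone and 116 after joining intervals less than 1 kb apart. The median covered share, 32.5%, was 44.7% with 20 kb on either side, 48.7% in gene bodies, 35.0% after joining and 31.9% with intervals of at least 500 bp. The medians over coding genes were 9.53% with 20 kb, 7.82% in gene bodies and 9.16% with the longer intervals. In each of these settings Irs1 ranked highest, and Igfbp3 ranked lowest except in gene bodies alone, where Insr did. With a joining distance of 500 bp, the Irs1 series of 73.5 kb split into 8 runs: that over the TSS was 14.8 kb, and the longest, a measure added after seeing the data, 33.2 kb. Promoter peaks were found in 10 of the 10 genes under each of the TSS definitions tried, beside 64.3% of coding genes with coding transcripts only, 67.8% within 3 kb and 62.1% over a TSS. The genes were chosen by their peaks. No paired analysis was possible because the list holds no values per library. The paper gives read totals per library, but the list holds no read depth along the genome. A stretch without a peak therefore does not show that H3K56ac is absent.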
